A study of Mus musculus with 30 samples.

Results

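The genes described here are 9 enzymes that make serine or move its carbon through folate: Mthfd2, Mthfd1, Mthfd1l, Shmt1, Shmt2, Phgdh, Psat1, Psph and Aldh1l1. They were chosen by name, as every probe annotated to them on 30 arrays, a rule that uses no measured value. A named probe existed for 8 of them, and 7 were bright enough to test, of 13226 genes tested in all. The members had 14 of the 46174 probes on the array, and 10 of the 14 were detected on at least 5 arrays. Mthfd1l had no named probe, and the 1 probe of Psph was detected on 0 of 30 arrays, so neither gene is described further.

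The study measured RNA of the nucleus accumbens (NAc), a region of the ventral striatum, from C57BL/6J mice on Illumina bead arrays. Mice were sampled 4 h after 4 mg/kg of dexamethasone, a synthetic glucocorticoid that activates the glucocorticoid receptor, or after saline. RNA came from astrocytes or from neurons, both isolated with magnetic sorting, or from unsorted NAc tissue. The 6 groups were astrocytes after dexamethasone, astrocytes after saline, neurons after dexamethasone, neurons after saline, tissue after dexamethasone and tissue after saline, with 5 arrays each, and each array held RNA of its own mouse. The labels give neither the age of the mice nor the antibodies of the sort. The arrays lay on 5 chips, 1 array of each group a chip and each group at a fixed place on it, so the place on the chip and the group cannot be told apart. The p-values measure the spread between these mice.

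Phgdh, Psat1 and Psph carry out the 3 steps that turn a glycolytic intermediate, phosphoglycerate, into serine. Shmt1 in the cytosol and Shmt2 in mitochondria pass a carbon of serine to tetrahydrofolate and leave glycine. Mthfd2 oxidizes the loaded folate in mitochondria, Mthfd1l releases formate there, and Mthfd1 uses formate in the cytosol for purines, thymidylate and methionine. Aldh1l1 oxidizes formyl folate to carbon dioxide, and it is widely used as a marker of astrocytes. In the brain, serine is made largely by astrocytes, which supply it to neurons.

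The stretch around the gene start is shown for the member called with dexamethasone, Mthfd2, and for the 3 members whose levels were ordered astrocytes, tissue, neurons, namely Phgdh, Psat1 and Aldh1l1. Each holds 250 bases before and 50 bases after the start in RefSeq (GRCm38.p6), written 5′ to 3′ on the gene's strand. They lie at chr6:83317555-83317854 (minus strand) for Mthfd2, chr3:98339920-98340219 (minus strand) for Phgdh, chr19:15925010-15925309 (minus strand, the first of 2 starts) for Psat1 and chr6:90550543-90550842 (plus strand) for Aldh1l1. Capitals mark CCAAT or its complement ATTGG, and GGGCGG or its complement CCGCCC.
Mthfd2: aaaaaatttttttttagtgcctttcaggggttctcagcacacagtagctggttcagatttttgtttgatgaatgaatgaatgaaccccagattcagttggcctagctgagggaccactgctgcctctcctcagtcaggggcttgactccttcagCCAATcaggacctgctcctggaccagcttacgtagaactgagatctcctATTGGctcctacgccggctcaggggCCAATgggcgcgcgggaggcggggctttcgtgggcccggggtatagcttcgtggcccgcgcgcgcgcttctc
Phgdh: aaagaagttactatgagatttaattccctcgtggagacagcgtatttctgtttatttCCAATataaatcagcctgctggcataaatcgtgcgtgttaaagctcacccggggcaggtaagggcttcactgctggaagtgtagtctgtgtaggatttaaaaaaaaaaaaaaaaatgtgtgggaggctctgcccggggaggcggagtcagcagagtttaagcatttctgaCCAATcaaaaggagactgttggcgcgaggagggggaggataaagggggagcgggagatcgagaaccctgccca
Psat1: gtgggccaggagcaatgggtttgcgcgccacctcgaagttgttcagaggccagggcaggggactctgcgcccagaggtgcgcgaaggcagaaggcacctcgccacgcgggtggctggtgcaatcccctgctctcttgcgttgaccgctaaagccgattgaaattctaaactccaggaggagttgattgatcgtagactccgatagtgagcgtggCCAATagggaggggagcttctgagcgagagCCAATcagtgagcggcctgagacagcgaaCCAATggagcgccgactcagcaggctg
Aldh1l1: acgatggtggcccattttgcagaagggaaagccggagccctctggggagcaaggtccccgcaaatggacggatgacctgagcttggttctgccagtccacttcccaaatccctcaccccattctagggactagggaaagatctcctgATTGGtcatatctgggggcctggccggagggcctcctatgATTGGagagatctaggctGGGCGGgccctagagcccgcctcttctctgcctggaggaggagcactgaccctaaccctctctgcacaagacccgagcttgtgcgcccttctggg

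All 9 members had an entry in this table, with 10 windows in all, and both strands were searched. The palindrome of the glucocorticoid receptor, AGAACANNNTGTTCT, was in 0 of the 10 windows and in 0.00913% of the 32851 windows of all genes. A single arm of it, AGAACA, was in the window of Psph alone, against 19% of all windows. TGATGNAA, a composite site bound by ATF4, was in 0 of the 10 member windows and 3.97% of all windows. CCAAT was in 7 of the 10 member windows and 37.4% of all windows, with 3 matches in Mthfd2, at -96, -47 and -22 from the start. GGGCGG was in 6 of the 10 member windows, against 35.7% of all windows, and not in that of Mthfd2. A match of letters is a description, and these windows leave out every site farther from the start.

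On all arrays, 36.2% to 50.1% of probes were detected, and arrays of a group correlated at 0.90 to 0.985. Sorted astrocytes were rich in astrocyte markers, and sorted neurons in markers of the main neurons of the NAc. Both also held transcripts of other cells. The mean level of 15 astrocyte markers was 13.77 in astrocytes after dexamethasone and 13.82 after saline, 8.06 in neurons after dexamethasone and 9.11 after saline, and 11.48 in tissue after dexamethasone and 11.42 after saline (log2). That of 10 markers of medium spiny neurons, the main neurons of the NAc, was 8.36 and 8.45 in astrocytes after dexamethasone and saline, 12.62 and 12.59 in neurons, and 11.71 and 11.63 in tissue. General neuron markers were not richer in sorted neurons than in tissue. Over 8 of them the saline mean was 12.27 in neurons, 12.54 in tissue and 9.82 in astrocytes. Between saline neurons and tissue 0 of the 8 were called higher and 3 lower, with a median of -0.19, where 26.9% of all genes were called. Astrocyte arrays also held oligodendrocyte transcripts, with a mean of 13.77 after dexamethasone and 13.65 after saline over 8 markers, against 14.04 and 14.10 in tissue after dexamethasone and saline. Under saline 8 of 9 endothelial and 5 of 7 mural cell markers were called higher in astrocytes than in tissue, with medians of 1.17 and 1.49. In that comparison 51.8% of all genes were called in either direction. The part of these vessel markers, and of the oligodendrocyte, precursor and microglia markers, in the astrocyte levels of the members was not tested. Neuron arrays held transcripts of dividing cells, with a mean of 9.32 after dexamethasone and 9.62 after saline over 6 markers, against 6.18 and 6.33 in tissue after dexamethasone and saline. They also held transcripts of blood cells, with a mean of 13.46 after dexamethasone and 13.54 after saline over 5 markers, against 10.67 in tissue after either treatment. Under saline 6 of 6 dividing-cell, 4 of 5 blood and 6 of 9 endothelial markers were called higher in neurons than in tissue. In that comparison 26.9% of all genes were called in either direction. The median difference of the endothelial markers there was 0.96. Between saline astrocytes and neurons 1 of the 9 endothelial markers was called, where 58.2% of all genes were. The part of these markers in the neuron levels of the members was not tested. Tissue dexamethasone replicate 5 stood apart, with 50.1% of probes detected, a mean correlation with its group of 0.909 and a score of 83 on the third principal component, where the other tissue arrays lay between -20 and 3. Dexamethasone differences of the members in tissue are therefore also given without it, on the tested probe of each gene. In bulk RNA, fewer cells of a type and less RNA per cell cannot be told apart.

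Mthfd2, the mitochondrial dehydrogenase and cyclohydrolase of the folate cycle, rose strongly with dexamethasone in astrocytes. Its normalized level (log2) was 12.23, 12.15, 12.51, 12.11 and 11.39 on the 5 dexamethasone arrays, against 8.51, 8.82, 8.65, 8.53 and 8.50 on the 5 saline arrays. The lowest dexamethasone array lay far above the highest saline array, so the groups did not overlap. The difference was 3.48 ± 0.19 (log2, SE), an 11.1-fold increase with a 95% confidence interval of 8.31 to 14.9. Among the 13226 genes it had the smallest p in astrocytes and the third largest increase, with an adjusted p of 1.66e-05 (limma, Benjamini-Hochberg over all genes). On the 5 chips taken singly, dexamethasone exceeded saline by 2.89 to 3.87.

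A second Mthfd2 probe moved in the same way. It read 9.95, 9.91, 10.18, 9.90 and 9.03 in astrocytes after dexamethasone, against 5.86, 6.45, 6.13, 6.64 and 7.34 after saline. Only 2 of the 5 saline arrays detected it, against 5 of 5 dexamethasone arrays, and the difference was 3.31 ± 0.29 (log2, SE; adjusted p = 0.000189 over 22552 probes). Replicate 5 was the lowest dexamethasone array on both probes. Astrocyte markers moved little in the same arrays: 6 of 15 had a positive and 9 of 15 a negative difference, with a median of -0.02, and no gene of any cell-type marker list was called in astrocytes. Choroid plexus markers differed more between arrays, with a mean of 7.87 after dexamethasone (7.36 to 8.21) and 8.93 after saline (7.77 to 10.42) over 4 measured genes, and their part in the result was not tested.

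In neurons Mthfd2 was not called. It read 9.63, 9.72, 10.05, 9.40 and 9.50 after dexamethasone, against 9.44, 9.88, 10.17, 9.89 and 9.87 after saline. The groups overlapped and the difference was -0.19 ± 0.16 (log2, SE; adjusted p = 0.906), with a 95% confidence interval of -0.54 to 0.16. The second probe gave -0.60 ± 0.25 (adjusted p = 0.686). The same neuron arrays differed in RNA of other cells: all 15 astrocyte markers had a negative difference, with a median of -1.13 and none called, and the mean of the list ranged from 7.71 to 8.53 after dexamethasone and from 8.49 to 9.78 after saline. Gfap, Fgfr3 and Entpd2 were detected on no neuron array after dexamethasone, and Fgfr3 on none after saline. Differences were also negative for 8 of 8 oligodendrocyte markers (median -0.53), 8 of 9 endothelial markers (median -0.33) and 6 of 6 dividing-cell markers (median -0.31), with none called. The part of these markers in the neuron values was not tested.

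In tissue Mthfd2 leaned upward without passing the test. It read 10.13, 10.43, 9.59, 9.44 and 9.28 after dexamethasone, against 9.25, 9.16, 9.06, 9.22 and 9.43 after saline. Replicates 1 and 2 of the dexamethasone group were the high arrays, replicate 5 lay within the saline range, and the groups overlapped. The difference was 0.55 ± 0.22 (log2, SE; limma, unadjusted p = 0.0299, adjusted p = 0.805). It was positive on 4 of 5 chips, and without tissue dexamethasone replicate 5 it was 0.67 ± 0.20 (adjusted p = 0.342). Replicates 1 and 2 also had the highest medians of deposited intensity of all arrays, 8.71 and 8.78, where the lowest of the 30 was 7.37. Over 4 choroid plexus markers the mean on dexamethasone replicates 1 to 5 was 11.53, 8.56, 11.07, 8.64 and 8.87. After saline the mean of these markers ranged from 8.47 to 10.45. The part of the intensities and of these markers in the result was not tested. The second probe read 7.97, 6.44, 7.38, 7.55 and 8.66 after dexamethasone, against 7.22, 6.60, 6.36, 6.27 and 6.20 after saline, a difference of 1.07 ± 0.36 (adjusted p = 0.785). It was detected on 4 of 5 dexamethasone and 2 of 5 saline arrays. Its highest value is replicate 5, the array that stood apart, and no difference without that array is given for this probe. The probes ordered the tissue dexamethasone arrays differently, since replicate 2 was highest on the tested probe and lowest on the second.

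**Figure D1:**
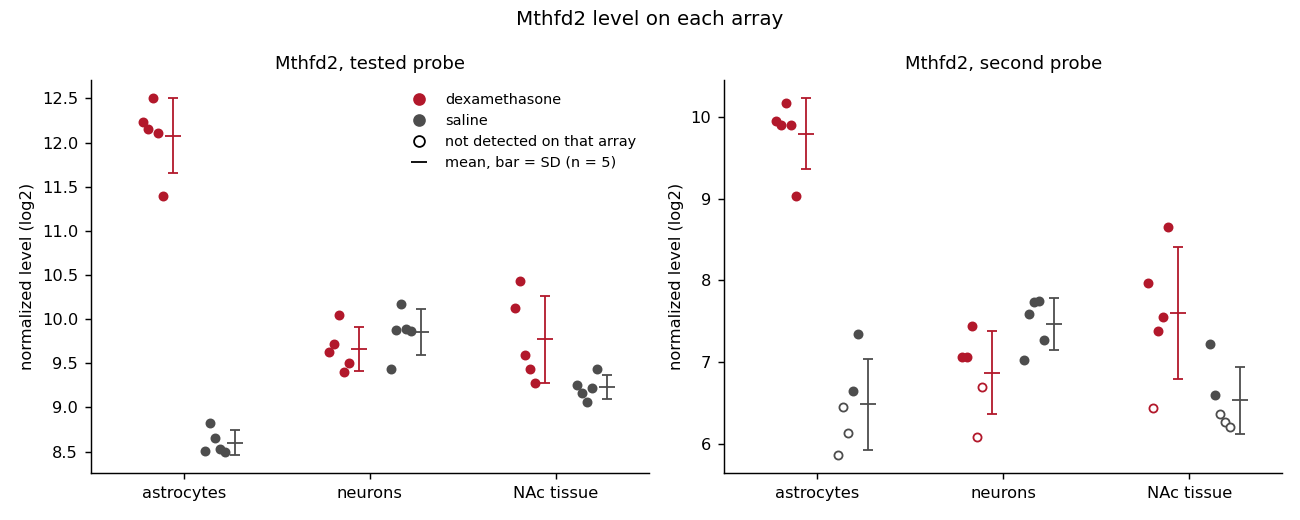
Normalized level (log2) of the 2 detected Mthfd2 probes on each of 30 arrays, by preparation, with dexamethasone in red and saline in grey; open points were not detected, and bars give the mean and SD of 5 arrays. On the tested probe the 5 astrocyte dexamethasone arrays lie between 11.39 and 12.51 and the 5 astrocyte saline arrays between 8.50 and 8.82, while neurons and tissue lie between 9.06 and 10.43.

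The response of Mthfd2 differed between preparations when the difference itself was tested on all 30 arrays. In astrocytes it exceeded that in neurons by 3.67 ± 0.28 (log2, SE; adjusted p = 1.93e-09) and that in tissue by 2.93 ± 0.28 (adjusted p = 3.8e-07), with the same sign on 5 of 5 chips in both. Without tissue dexamethasone replicate 5 these were 3.67 ± 0.26 and 2.81 ± 0.27 (adjusted p = 1.3e-09 and 1.05e-06). Between neurons and tissue the responses differed by -0.74 ± 0.28, which did not pass the test (adjusted p = 0.89), and by -0.86 without tissue dexamethasone replicate 5 (adjusted p = 0.403). The second probe gave 3.92 ± 0.45 for astrocytes over neurons and 2.24 ± 0.45 for astrocytes over tissue (adjusted p = 5.38e-06 and 0.0262). The 3 differences share arrays and are not independent of each other. Astrocyte markers also entered them: 5 of 15 were called, all positive, between the responses of astrocytes and neurons, and their part in the result was not tested.

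Under saline the order was the reverse of that after dexamethasone. Saline astrocytes had the lowest Mthfd2 of the 6 groups (8.60 ± 0.14, SD, n = 5), below saline neurons (9.85 ± 0.26) and saline tissue (9.23 ± 0.14). The saline groups did not overlap: astrocytes were lower than neurons by -1.25 ± 0.13 (log2, SE; adjusted p = 5.9e-07) and lower than tissue by -0.62 ± 0.13 (adjusted p = 0.000946), and neurons were higher than tissue by 0.62 ± 0.13 (adjusted p = 0.00249). In the same saline arrays the median difference of neurons from tissue was 3.40 over the dividing-cell markers and 3.59 over the blood markers, and their part in the Mthfd2 difference was not tested. The second probe gave -0.99 ± 0.26 for astrocytes against neurons (adjusted p = 0.00402), -0.05 ± 0.26 for astrocytes against tissue (adjusted p = 0.907) and 0.95 ± 0.26 for neurons against tissue (adjusted p = 0.0148). This probe was detected on 2 of 5 saline astrocyte arrays and 2 of 5 saline tissue arrays. It lay near background in both, where small differences are not detectable. With the mean of both probes the difference of astrocytes from tissue was -0.34 (adjusted p = 0.104), and with median scaling that of neurons from tissue was 0.42 (adjusted p = 0.136), so both calls rest on the setting. After dexamethasone, astrocytes had the highest mean, 12.08 ± 0.42, and the next groups were saline neurons, tissue after dexamethasone at 9.77 ± 0.49 and neurons after dexamethasone at 9.66 ± 0.25, which overlapped as neighbours.

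Of the 7 measured members, Mthfd2 was the 1 called with dexamethasone in astrocytes. Over all genes 1.76% were called there, 233 genes with 185 higher and 48 lower, and with median scaling 148 with 136 higher and 12 lower. The median difference was 0.05 over the members and -0.01 over all genes. In neurons 0 of 7 members and 0% of genes were called, with 932 genes at an unadjusted p under 0.05, and median scaling called 11. In tissue 0 of 7 members and 0.0378% of genes were called, 5 genes, or 2 with the chip as a block, 0 with median scaling and 14 without tissue dexamethasone replicate 5, and 752 genes had an unadjusted p under 0.05 (limma). Mthfd2 was also the only member called in the differences between responses, where 0.832% of genes were called for astrocytes against neurons, 0.355% for astrocytes against tissue and 0.0529% for neurons against tissue, the last with 0 of 7 members.

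**Figure D2:**
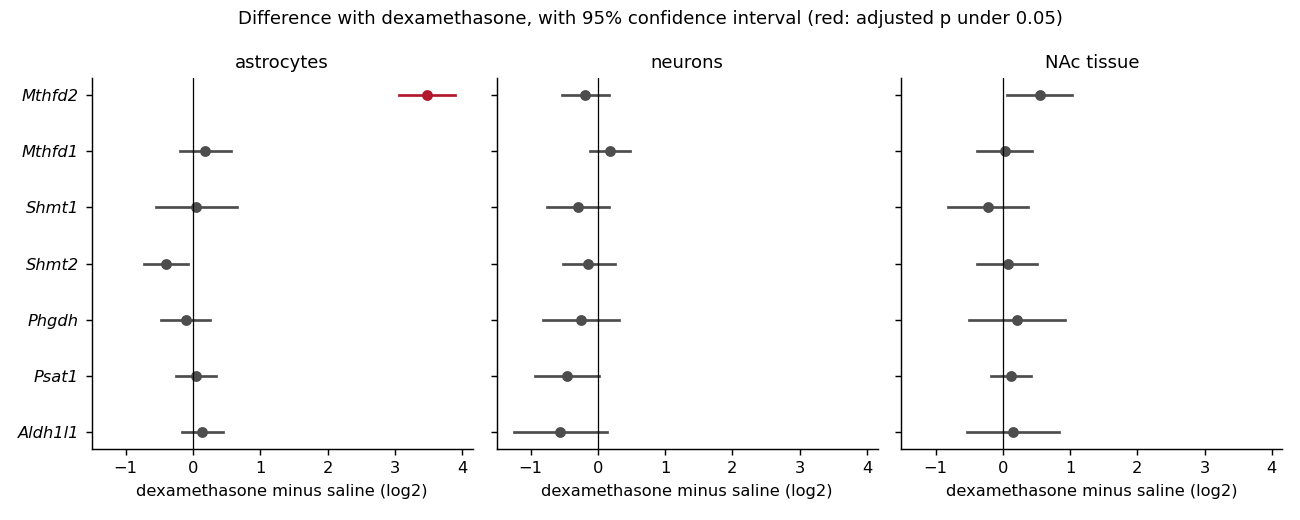
Dexamethasone minus saline (log2) for the 7 measured members in each preparation, with 95% confidence intervals of the fit on 10 arrays; red marks an adjusted p under 0.05. Mthfd2 in astrocytes lies at 3.48, and all other points lie between -0.56 and 0.55.

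The serine synthesis enzymes were high in astrocytes and did not pass the test with dexamethasone. Phgdh, which catalyses the first step, read 11.53, 11.37, 11.08, 11.52 and 11.20 in astrocytes after dexamethasone, against 11.63, 11.60, 11.06, 11.72 and 11.22 after saline. The arrays of both groups lay in 1 range, and the difference was -0.11 ± 0.16 (log2, SE; 95% confidence interval -0.47 to 0.25; adjusted p = 0.975). In neurons it read 6.63, 7.02, 6.68, 6.99 and 6.70 after dexamethasone, against 6.45, 6.39, 7.51, 7.20 and 7.71 after saline. Phgdh was close to background there, detected on 3 of 5 arrays in each neuron group. In tissue it read 8.97, 9.03, 9.30, 9.90 and 9.51 after dexamethasone, against 9.37, 7.85, 9.15, 9.73 and 9.54 after saline, a difference of 0.21 ± 0.33, or 0.17 ± 0.36 without tissue dexamethasone replicate 5.

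Psat1, the aminotransferase of the second step, read 13.43, 13.35, 13.36, 13.97 and 13.58 in astrocytes after dexamethasone, against 13.52, 13.55, 13.48, 13.47 and 13.47 after saline. The saline arrays were tightly grouped, within the range of the dexamethasone arrays, and the difference was 0.04 ± 0.14 (95% confidence interval -0.26 to 0.34; adjusted p = 0.998). In neurons Psat1 read 9.93, 10.54, 9.94, 10.77 and 10.60 after dexamethasone, against 10.56, 10.54, 10.80, 10.82 and 11.36 after saline. The neuron groups overlapped, and the difference of -0.46 ± 0.21 did not pass the test (adjusted p = 0.717). All 15 astrocyte markers had a negative difference in the same arrays, with none called, and their part in the Psat1 difference was not tested. In tissue it read 12.07, 12.05, 11.79, 12.02 and 12.27 after dexamethasone, against 11.92, 11.87, 11.99, 11.85 and 11.97 after saline, a difference of 0.12 ± 0.14 (adjusted p = 0.883), or 0.06 ± 0.11 without tissue dexamethasone replicate 5.

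Under saline both enzymes were ordered astrocytes, tissue, neurons with no overlap between neighbours. Phgdh averaged 11.45 ± 0.29 in astrocytes, 7.05 ± 0.61 in neurons and 9.13 ± 0.75 in tissue (log2, SD, n = 5). Astrocytes exceeded neurons by 4.40 ± 0.33 (SE; adjusted p = 7.88e-09) and tissue by 2.32 ± 0.33 (adjusted p = 1.85e-05). Psat1 averaged 13.50 ± 0.04 in astrocytes, 10.82 ± 0.33 in neurons, where all 5 arrays detected it, and 11.92 ± 0.06 in tissue. Astrocytes exceeded neurons by 2.68 ± 0.14 (adjusted p = 1.04e-10) and tissue by 1.58 ± 0.14 (adjusted p = 8.5e-08). Neurons lay below tissue by -2.08 ± 0.33 for Phgdh (adjusted p = 0.000198) and by -1.10 ± 0.14 for Psat1 (adjusted p = 1.8e-05).

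The enzymes that load and carry the carbon showed smaller contrasts. Shmt2, the mitochondrial serine hydroxymethyltransferase, read 7.83, 7.59, 7.87, 7.69 and 7.91 in astrocytes after dexamethasone, against 8.53, 8.29, 8.25, 7.90 and 7.93 after saline. Each chip gave a lower value after dexamethasone, by 0.02 to 0.70, but dexamethasone replicate 5 lay just above saline replicate 4, so the groups overlapped, and the difference of -0.40 ± 0.15 did not pass the test (adjusted p = 0.314). A further Shmt2 probe was detected on 3 of 30 arrays and 2 of those were astrocyte dexamethasone arrays, at 7.36 and 6.81. In astrocytes this further probe averaged 6.59 ± 0.51 after dexamethasone and 6.13 ± 0.28 after saline (SD), opposite in direction to the tested probe. It was detected on 0 of 5 saline astrocyte arrays, and its difference was not tested. In neurons Shmt2 read 7.28, 7.22, 7.13, 7.02 and 7.11 after dexamethasone, against 7.10, 7.33, 7.22, 7.92 and 6.86 after saline, a difference of -0.14 ± 0.17 (adjusted p = 0.959). In tissue it read 6.29, 7.26, 6.53, 7.15 and 6.98 after dexamethasone, with replicates 1 and 3 not detected, against 6.93, 6.73, 6.55, 6.95 and 6.71 after saline. The groups overlapped in both preparations, and the tissue difference was 0.07 ± 0.20, or 0.03 ± 0.21 without tissue dexamethasone replicate 5.

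Under saline Shmt2 averaged 8.18 ± 0.27 in astrocytes, above neurons at 7.29 ± 0.39 by 0.89 ± 0.18 (adjusted p = 0.000487) and above tissue at 6.78 ± 0.17 by 1.41 ± 0.18 (adjusted p = 6.52e-06). Neurons exceeded tissue by 0.51 ± 0.18 (adjusted p = 0.0471), a call lost with the chip as a block (adjusted p = 0.0514) and in 9 of 10 fits without 1 array, the lowest difference being 0.35 without neuron saline replicate 4.

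Shmt1, the cytosolic counterpart, was detected on 19 of 30 arrays, the fewest of the 7 members. In astrocytes it read 6.32, 6.43, 5.87, 6.81 and 6.00 after dexamethasone, against 6.33, 6.45, 6.16, 5.36 and 6.90 after saline, and 1 of 5 arrays detected it in each group. In neurons it read 7.54, 7.18, 6.68, 6.81 and 7.43 after dexamethasone, against 7.10, 7.21, 7.97, 7.47 and 7.41 after saline, with 4 and 5 arrays detected. Dexamethasone and saline arrays overlapped in both, with differences of 0.05 ± 0.27 in astrocytes and -0.30 ± 0.21 in neurons (adjusted p = 0.998 and 0.865). In tissue Shmt1 read 7.43, 6.01, 6.10, 7.15 and 6.44 after dexamethasone, against 7.16, 6.89, 6.85, 6.67 and 6.67 after saline. The tissue dexamethasone arrays spread on both sides of the saline arrays, and the difference was -0.22 ± 0.27, or -0.17 ± 0.29 without tissue dexamethasone replicate 5. The order of the preparations was opposite to that of Shmt2 for the sorted cells: under saline, astrocytes lay below neurons by -1.19 ± 0.23 (adjusted p = 0.00036), with no overlap. The lower level in astrocytes than in tissue, -0.61 ± 0.23 (adjusted p = 0.0397), was lost in 6 of 10 fits without 1 array and was -0.39 without astrocyte saline replicate 4. Neurons and tissue differed by 0.58 ± 0.23 (adjusted p = 0.0791), which passed the test with array weights only.

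Mthfd1, the cytosolic enzyme with dehydrogenase, cyclohydrolase and synthetase activity, read 10.57, 10.37, 10.61, 10.97 and 10.45 in astrocytes after dexamethasone, against 10.09, 10.63, 10.74, 10.46 and 10.14 after saline. The groups overlapped, with a difference of 0.18 ± 0.17 (95% confidence interval -0.19 to 0.56; adjusted p = 0.92). In neurons it read 9.50, 9.31, 9.63, 9.49 and 9.51 after dexamethasone, against 9.38, 9.44, 9.35, 9.52 and 8.85 after saline, a difference of 0.18 ± 0.14 (adjusted p = 0.879). In tissue it read 9.36, 9.36, 9.30, 9.21 and 9.91 after dexamethasone, against 9.23, 9.38, 9.66, 9.68 and 9.03 after saline. Replicate 5 was the high tissue dexamethasone array, and the difference was 0.03 ± 0.19 with it and -0.09 ± 0.15 without it. Under saline Mthfd1 was higher in astrocytes than in neurons by 1.10 ± 0.18 (adjusted p = 4.51e-05) and than in tissue by 1.01 ± 0.18 (adjusted p = 0.000129), without overlap. Neurons and tissue averaged 9.31 ± 0.26 and 9.40 ± 0.28, a difference of -0.09 ± 0.18 (95% confidence interval -0.46 to 0.28). A second Mthfd1 probe gave 1.47 ± 0.20 and 1.51 ± 0.20 for astrocytes against neurons and against tissue.

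Aldh1l1 had the largest SD over the 30 arrays of the 7 members, 2.39. In astrocytes it read 12.07, 12.17, 12.24 and 12.26 on replicates 1 to 4 and 12 on replicate 5 after dexamethasone, against 12.25, 12.12, 11.83, 12.18 and 11.66 after saline, a difference of 0.14 ± 0.14 (adjusted p = 0.937). In neurons it was detected on 0 of 5 arrays after dexamethasone and on 3 of 5 after saline, with levels of 5.92, 5.77, 6.61, 5.88 and 6.69 against 6.71, 6.26, 7.50, 5.91 and 7.28. The neuron difference of -0.56 ± 0.32 had the same sign on 5 of 5 chips and did not pass the test (adjusted p = 0.802, and 0.448 with the chip as a block). All 15 astrocyte markers had a negative difference in the same arrays, with none called. Their part in the Aldh1l1 difference was not tested. In tissue it read 8.59, 8.90, 8.44, 8.88 and 10.23 after dexamethasone, against 8.62, 9.41, 8.96, 8.63 and 8.66 after saline. The high value is replicate 5, and the tissue difference was 0.15 ± 0.31 with it and -0.16 ± 0.19 without it, called in neither.

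Under saline Aldh1l1 averaged 12.01 ± 0.25 in astrocytes, 6.73 ± 0.67 in neurons and 8.86 ± 0.34 in tissue. Astrocytes exceeded neurons by 5.27 ± 0.27 (adjusted p = 8.86e-11) and tissue by 3.15 ± 0.27 (adjusted p = 5.86e-08), and neurons lay below tissue by -2.12 ± 0.27 (adjusted p = 1.87e-05). A dimmer second probe averaged 7.81 ± 0.42 in saline astrocytes, where 5 of 5 arrays detected it, and was detected on no saline array of neurons or tissue, so no exact difference between preparations is given for it. In all, 7 of 7 members were called between astrocytes and neurons, where 58.2% of genes were, and 7 of 7 between astrocytes and tissue, where 51.8% of genes were. Between neurons and tissue 5 of 7 members were called, against 26.9% of genes. Preparation, sorting and array position cannot be told apart in these levels.

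**Figure D3:**
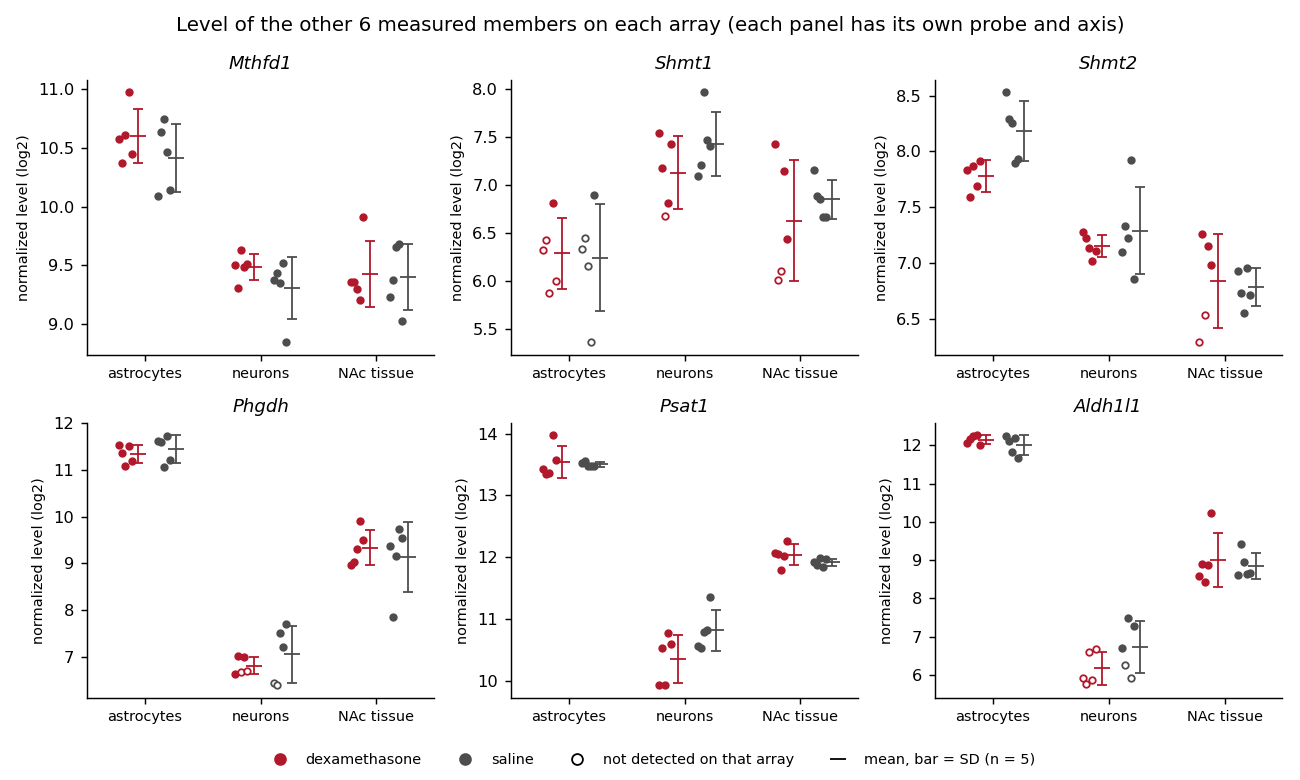
Normalized level (log2) of the other 6 measured members on each of 30 arrays, with dexamethasone in red and saline in grey; open points were not detected, and bars give the mean and SD of 5 arrays. Phgdh, Psat1 and Aldh1l1 are highest in astrocytes and lowest in neurons, Shmt1 is highest in neurons, and in tissue the array of Aldh1l1 at 10.23 is dexamethasone replicate 5.

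The surrounding pathways were followed with 6 lists of 57 further genes, of which 51 had a named probe and 43 were tested. With dexamethasone 0 of 43 were called in astrocytes, 0 in neurons and 0 in tissue, with 4, 4 and 2 at an unadjusted p under 0.05 (limma). Over all 13226 genes 1.76%, 0% and 0.0378% were called, with 1342, 932 and 752 at an unadjusted p under 0.05. The median difference was -0.05 in astrocytes, -0.02 in neurons and -0.06 in tissue, beside -0.01, -0.01 and -0.05 over all genes. In astrocytes the smallest p were those of Slc38a5, a glutamine and serine transporter, at -0.88 ± 0.26 (adjusted p = 0.166), of Adssl1, an adenylosuccinate synthase, at 0.50 ± 0.17 (adjusted p = 0.249), and of Sptlc2, a subunit of serine palmitoyltransferase, at -0.75 ± 0.28 (adjusted p = 0.34). The other mitochondrial folate genes included Aldh1l2, the mitochondrial counterpart of Aldh1l1, at -0.47 ± 0.48, and Slc25a32, the mitochondrial folate carrier, at 0.41 ± 0.28. The purine genes, users of formyl folate, ranged from -0.33 to 0.50, with 0 of 12 called.

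A single transporter was called in the differences between responses. Slc7a10, an exchanger of small neutral amino acids including serine, differed between astrocytes and neurons by 1.68 ± 0.39 (adjusted p = 0.0272) and between neurons and tissue by -2.00 ± 0.39 (adjusted p = 0.0459). With the chip as a block both calls were lost (adjusted p = 0.0501 and 0.098), and the second was also lost without tissue dexamethasone replicate 5. Its level in neurons averaged 6.62 ± 0.89 after dexamethasone and 8.54 ± 0.56 after saline, in astrocytes 13.59 ± 0.08 and 13.85 ± 0.19, and in tissue 10.24 ± 0.27 and 10.17 ± 0.15. Slc7a10 is itself 1 of the 15 astrocyte markers, all of which had a negative difference in neurons with none called. The part of astrocyte RNA in the Slc7a10 differences was not tested.

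Under saline the pathway genes differed between preparations in both directions. Between astrocytes and neurons 27 of 43 were called (62.8%, beside 58.2% of all genes), with 20 higher and 7 lower, beside 3564 higher and 4129 lower over all genes. Between astrocytes and tissue 29 of 43 were called (67.4%, beside 51.8%), with 20 higher and 9 lower, beside 3201 higher and 3653 lower. Between neurons and tissue 13 of 43 were called (30.2%, beside 26.9%), with 3 higher and 10 lower, beside 1464 higher and 2098 lower. Gldc, the decarboxylase of the glycine cleavage system, was higher in astrocytes than in neurons by 4.93 ± 0.24, and the transsulfuration enzymes Cbs and Cth by 4.41 ± 0.24 and 3.70 ± 0.14. The carriers Slc7a10, Slc6a9 (glycine), Slc1a4 (neutral amino acids, including serine) and Slc46a1 (folate) were higher by 5.30, 3.74, 3.05 and 2.44. Lower in astrocytes than in neurons were Impdh1, of guanine nucleotide synthesis, at -2.17 ± 0.22, Sfxn3, of the family of mitochondrial serine carriers, at -1.72 ± 0.23, and Tyms, thymidylate synthase, at -1.38 ± 0.22. Tyms was also higher in neurons than in tissue, by 2.20 ± 0.22 (adjusted p = 1.96e-06). The 6 dividing-cell markers moved with it, with medians of -3.73 for astrocytes against neurons and 3.40 for neurons against tissue and 6 of 6 called in each, and their part in the Tyms difference was not tested.

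**Figure D4:**
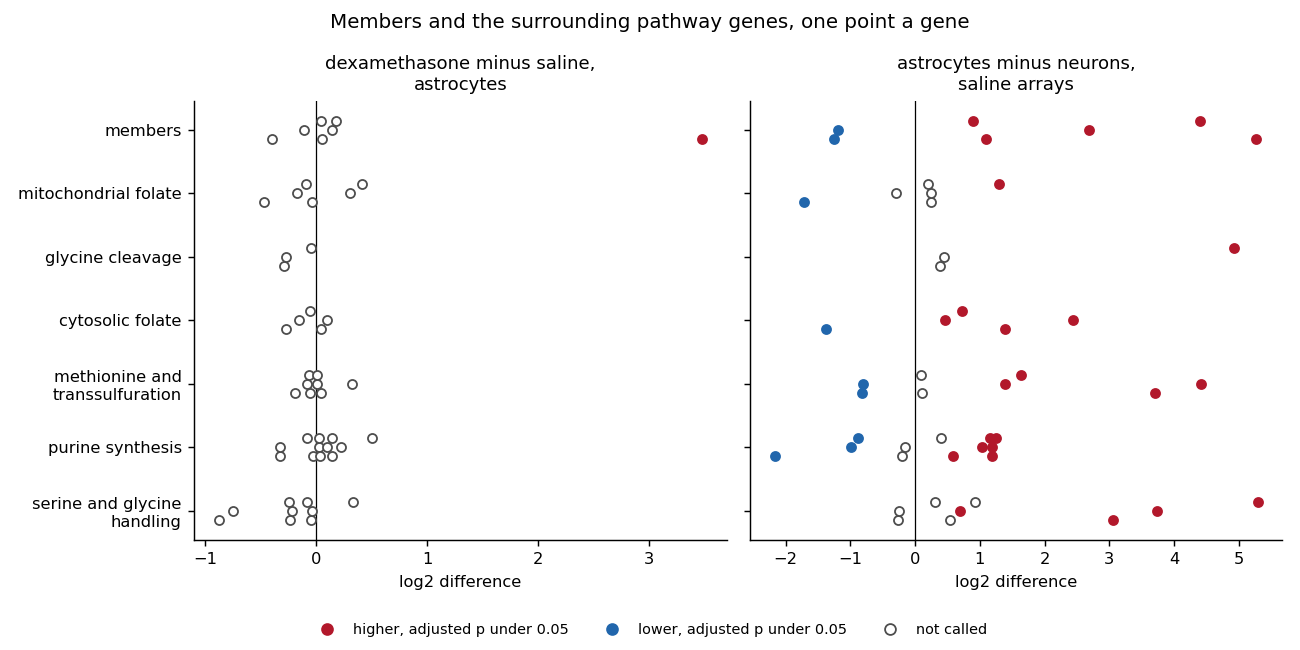
Log2 differences of the 7 measured members and of the 43 tested genes of 6 surrounding pathway lists, 1 point a gene, for dexamethasone minus saline in astrocytes and for astrocytes minus neurons under saline; filled points had an adjusted p under 0.05. With dexamethasone the filled point is Mthfd2 at 3.48, while between cell types the values reach from -2.17 to 5.30.

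Mthfd2, Phgdh, Psat1 and Shmt2 are known targets of ATF4, a transcription factor of the amino acid and stress response, and 18 further genes of that response were followed. Of 15 tested, 1 was called in astrocytes with dexamethasone, where 1.76% of genes were, and the median was -0.05 beside -0.01 over all genes. At an unadjusted p under 0.05 there were 5 of the 15, beside 1342 of 13226 genes. The called gene was Ddit4, a brake on mTOR signalling, at 1.03 ± 0.21 (adjusted p = 0.0285), lost with the chip as a block (adjusted p = 0.0672); with that block Cebpb was called instead, at 0.78 ± 0.25 without the block (adjusted p = 0.21, and 0.0448 with it). Atf4 itself was at -0.04 ± 0.16, Asns at -0.05 ± 0.26, Chac1 at -0.68 ± 0.25 and Trib3 at 0.24 ± 0.36. Of 6 genes well known to respond to glucocorticoids, 5 were called in astrocytes, among them Fkbp5 at 3.87 ± 0.24 (adjusted p = 2.49e-05) and Cdkn1a at 3.46 ± 0.23 (adjusted p = 3.91e-05). The part of either group of regulators in the Mthfd2 difference was not tested.

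The 5 genes whose pattern over 30 arrays lay nearest to that of Mthfd2 were Fkbp5, Map3k6, Mycl, Klrg2 and Slc37a1. Their centred levels differed from those of Mthfd2 by a root mean square of 0.57, 0.60, 0.62, 0.63 and 0.66 (log2), where the median over 13225 genes was 1.23. Fkbp5, a co-chaperone of steroid receptors, averaged 12.29 ± 0.29 in astrocytes after dexamethasone and 8.42 ± 0.49 after saline. In neurons it averaged 10.54 ± 0.19 and 9.91 ± 0.42, and in tissue 10.93 ± 0.08 and 9.81 ± 0.14. Map3k6, a kinase of the MAP kinase cascade, averaged 11.02 ± 0.33 and 7.87 ± 0.47 in astrocytes after dexamethasone and saline. Klrg2 and Slc37a1 were detected on 5 of 5 astrocyte arrays after dexamethasone and on 0 of 5 after saline. These are descriptions over the same arrays, which all the genes share.

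**Figure D5:**
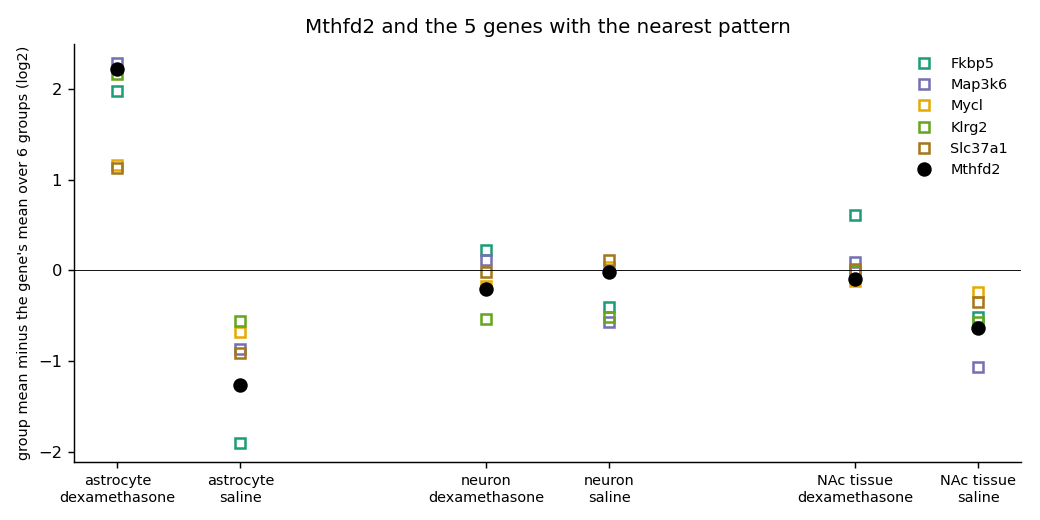
Group means of Mthfd2 and of the 5 genes nearest to it in pattern, each minus its own mean over the 6 groups (log2), with dexamethasone left of saline in each preparation. For all 6 genes the highest group is astrocytes after dexamethasone.

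The nearest genes of the other members were of another kind. For Phgdh they were Cd63, Glul and Plpp3, at root mean squares of 0.40, 0.41 and 0.43 against a median of 1.95, and Glul is glutamine synthetase, an enzyme of astrocytes. For Psat1 they were Prxl2a, Tspan12 and Nacc2, at 0.20 to 0.26 against 1.33, and for Aldh1l1 Gstm2-ps1, Atp1b2 and Cyp4f14, at 0.40 to 0.46 against 2.41. For Mthfd1 they were Epdr1, C130076O07Rik and Tank, at 0.21 to 0.23 against 0.77. For Shmt1 they were Psip1, Gpc1 and Med26, each at 0.39 against 0.75, and for Shmt2 Trps1, Igsf11 and Pdzd11, at 0.29 to 0.31 against 0.76. No member was among these nearest genes of another, but the measure also depends on the size of a gene's spread. The SD of the members over the 30 arrays ran from 0.57 for Shmt2 to 2.39 for Aldh1l1. Members with the same order of groups can therefore lie far apart by it.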

How the data were processed

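The authors deposited log2 intensities of 46174 probes on 30 arrays, not normalized between arrays, and a second table that a further log2 of those values, after quantile normalization, matched within 1e-09. Scanner software and background step: not given in the sources used here. For the first table, background was removed by the normexp model of limma, fitted on 1552 probes of olfactory, vomeronasal, trace amine and taste receptors, standing in for negative controls, with an offset of 16; quantile normalization and log2 followed, so that folds of dim probes are understated. The detection p of a probe was the fraction of receptor probes as bright or brighter on the same array. Probes were kept when it was under 0.05 on 5 or more arrays, and each gene was read from its probe with the highest mean. Probe levels are not comparable between genes, and the number of arrays limits the precision. Gene names came from the platform annotation, updated through RefSeq (GRCm38.p6): of 35725 probes with 1 symbol, 28566 matched by Entrez ID and 2632 by accession, and 4527 kept the annotation's symbol.

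Models were fitted with limma 3.58.1 in R 4.3.3 (lmFit and eBayes, two-sided) over 13226 genes, and genes were called at a Benjamini-Hochberg adjusted p under 0.05: dexamethasone against saline within a preparation (10 arrays), differences between responses (30 arrays) and saline levels (15 arrays). The model fits of the comparisons were tested on simulated levels with known changes, and the other steps were not tested in this way. The labels tie the replicate number to the chip, which pairs arrays across groups; after subtraction of group means, dexamethasone and saline arrays of 1 chip correlated with a mean of 0.19 in astrocytes, 0.18 in neurons and 0.05 in tissue. Alternatives were the chip as a block, no background correction, an offset of 50, median scaling, the second deposited table, 2 other detection filters, the mean over a gene's probes, 1 fit of all arrays, array weights and leaving out each array. The members, the gene lists, the tests and the rule for naming genes were chosen with earlier results of these data known. Named were all members, list genes that were called or among the 3 smallest p of a list, and the 5 or 3 genes nearest in pattern; the other list genes and the spread of the choroid plexus list were chosen after their values were seen.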

Additional observations from a re-analysis of the deposited data

Results flagged for a closer look

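The response of Mthfd2 to dexamethasone differed between preparations by a test of the difference, by 3.67 (log2) between astrocytes and neurons and by 2.93 between astrocytes and tissue. In 42 combinations of gene and group, 3 had an array far from the other 4, by the gap to the nearest array divided by the range of the group (Dixon's ratio), where chance gives about 1 in 20. Mthfd1 in tissue after dexamethasone was at 9.91 on replicate 5 and at 9.21 to 9.36 on the other arrays (ratio 0.776). Aldh1l1 in the same group was at 10.23 on replicate 5 and at 8.44 to 8.90 on the others (ratio 0.743). Both are the array that stood apart over all genes. Mthfd1 in neurons after saline was at 8.85 on replicate 5 and at 9.35 to 9.52 on the others (ratio 0.739).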

How the results depend on the processing

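For 63 single-gene differences, 1456 values were computed under alternatives: 0 of the called ones changed sign, 28 lost the call and 1 gained it. The calls of Mthfd2 with dexamethasone in astrocytes and in the differences between astrocytes and either other preparation held under every alternative run; its difference in astrocytes was 2.95 to 3.65, and 3.37 to 3.65 without 1 array, and 0.40 on the compressed scale of the second deposited table. The number of members called stayed at 1, 0 and 0 with dexamethasone in astrocytes, neurons and tissue, at 1, 1 and 0 in the differences between responses, and at 7 between saline astrocytes and neurons. It was 6 or 7 between saline astrocytes and tissue, also without 1 array, and 4 or 5 between saline neurons and tissue without 1 array. There it fell to 3 with median scaling and rose to 6 with array weights, in place of 5. The 28 lost calls were of Shmt1 against tissue (11), Shmt2 between neurons and tissue (15) and Mthfd2 (2). The replicate block of chips changed the call of 1 member, Shmt2 between saline neurons and tissue (0.51, adjusted p = 0.0514), beside the list genes named above. Sizes depend on the background step: without it the saline difference between astrocytes and neurons was -0.56 for Shmt1 and 0.47 for Shmt2, that between astrocytes and tissue was 0.70 for Shmt2, and that between neurons and tissue was -1.23 for Phgdh and -1.16 for Aldh1l1. The mean over probes gave 3.46 for Aldh1l1 between astrocytes and neurons and -0.96 between neurons and tissue. Median scaling moved the median difference over all genes in tissue to -0.23. An alternative chosen after seeing the data, the difference between astrocytes and neurons without tissue dexamethasone replicate 5, left 1 member called and 167 genes, in place of 110. Shmt1 in astrocytes, Phgdh and Aldh1l1 in neurons and all of Psph lie near background, where small differences are not detectable.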
